A study of Mus musculus with 9 samples.

Results

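The Hox and Iroquois homeobox genes were followed in gastrocnemius, the calf muscle that extends the ankle, of mice aged 6, 15 and 21 months. Members were taken by symbol, as every row named Hoxa, Hoxb, Hoxc or Hoxd with a number, or Irx with a number, which gave 37 of the 17314 genes in the deposited table, 32 Hox and 5 Irx. The groups were 3 mice of 6 months (youth in the labels), 3 of 15 months (mid) and 3 of 21 months (old), described as separate animals, and their strain and sex are not stated by the labels. RNA was extracted with TRIzol from the muscle, selected with oligo(dT) beads and sequenced in 1 library per mouse. The comparisons ask whether genes that record where in the body a muscle formed kept their levels with age.

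Hox genes encode homeodomain transcription factors that lie in 4 clusters, HoxA to HoxD, and are numbered by paralog group from the 3′ to the 5′ end of each cluster. In the embryo their order along the chromosome follows their order along the body axis, and in the limb the 5′ genes of HoxA and HoxD act from the hip toward the digits. Fibroblasts and muscle precursors of adult tissues are known to retain part of this pattern. Irx genes encode the TALE homeodomain factors of the Iroquois family. They lie in the clusters IrxA (Irx1, Irx2 and Irx4) and IrxB (Irx3, Irx5 and Irx6) and take part in patterning the heart, the neural tube and the early limb bud.

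Levels are CPM, counts scaled to library size with TMM factors, and comparisons between genes use CPM per kilobase of transcript. Total counts ran from 15354396 to 17317856 per library, of which the Hox genes took 3864 to 4973 counts. Fast fibre markers marked the tissue, with Myh4, a fast myosin heavy chain, at 33611 to 60203 CPM. In a principal component analysis of all genes, 6-month mouse 2 lay at one end and 15-month mouse 1 and 21-month mouse 3 at the other. Myh2, the myosin of fast oxidative fibres, was lowest and highest in the same libraries, at 1611, 0.751 and 530 CPM in the 6-month mice, 4395, 2825 and 834 CPM in the 15-month mice and 1267, 967 and 3642 CPM in the 21-month mice. Results are therefore also given without these 3 libraries or with the Myh2 level in the fit where that moves them. Tests across genes were edgeR's quasi-likelihood tests with Benjamini-Hochberg adjustment over 13044 genes and a threshold of 0.05. In bulk muscle RNA, fewer cells of a type and less RNA per cell cannot be told apart, and the p-values measure the spread between these mice.

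HoxA lies at chr6:52155367-52260880, HoxB at chr11:96194316-96368254, HoxC at chr15:102921131-103036856 and HoxD at chr2:74668225-74765142 (GRCm38.p6). Of the 37 members, 27 reached a mean of at least 1 CPM at one age or more, and 5 had a mean of at least 10 CPM over the 9 mice. The low filter kept 29 members for testing, 28 Hox genes and Irx3. The other 8 were too low to pass, among them Hoxb8 with 4 to 11 counts per library, Hoxd3 with 1 to 12, and Hoxd11, Irx1, Irx2, Irx5 and Irx6. Hoxb1, Hoxb13, Hoxc12, Hoxc13, Hoxd1, Hoxd12, Hoxd13 and Irx4 were not analysed here.

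Paralog group 10 carried the largest share of the Hox signal per length in every mouse, 36.4 to 43.1% of the sum over the Hox genes in CPM per kilobase. Group 8 followed at 14.9 to 22.6% and group 9 at 11.7 to 14.7%. Groups 2 and 13, toward the ends of the clusters, were each at 1.20% or less in every mouse. By cluster, HoxC held 35.1 to 39.9% of the signal, HoxA 27.7 to 38.8%, HoxD 21.7 to 34.1% and HoxB 2.59 to 3.94%. Within the clusters the level did not fall or climb evenly with number. Hoxd8 averaged 25.9 CPM per kilobase, Hoxd9 6.88 and Hoxd10 5.22, while Hoxd11, the next gene, had 0 to 2 counts per library.

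**Figure D1:**
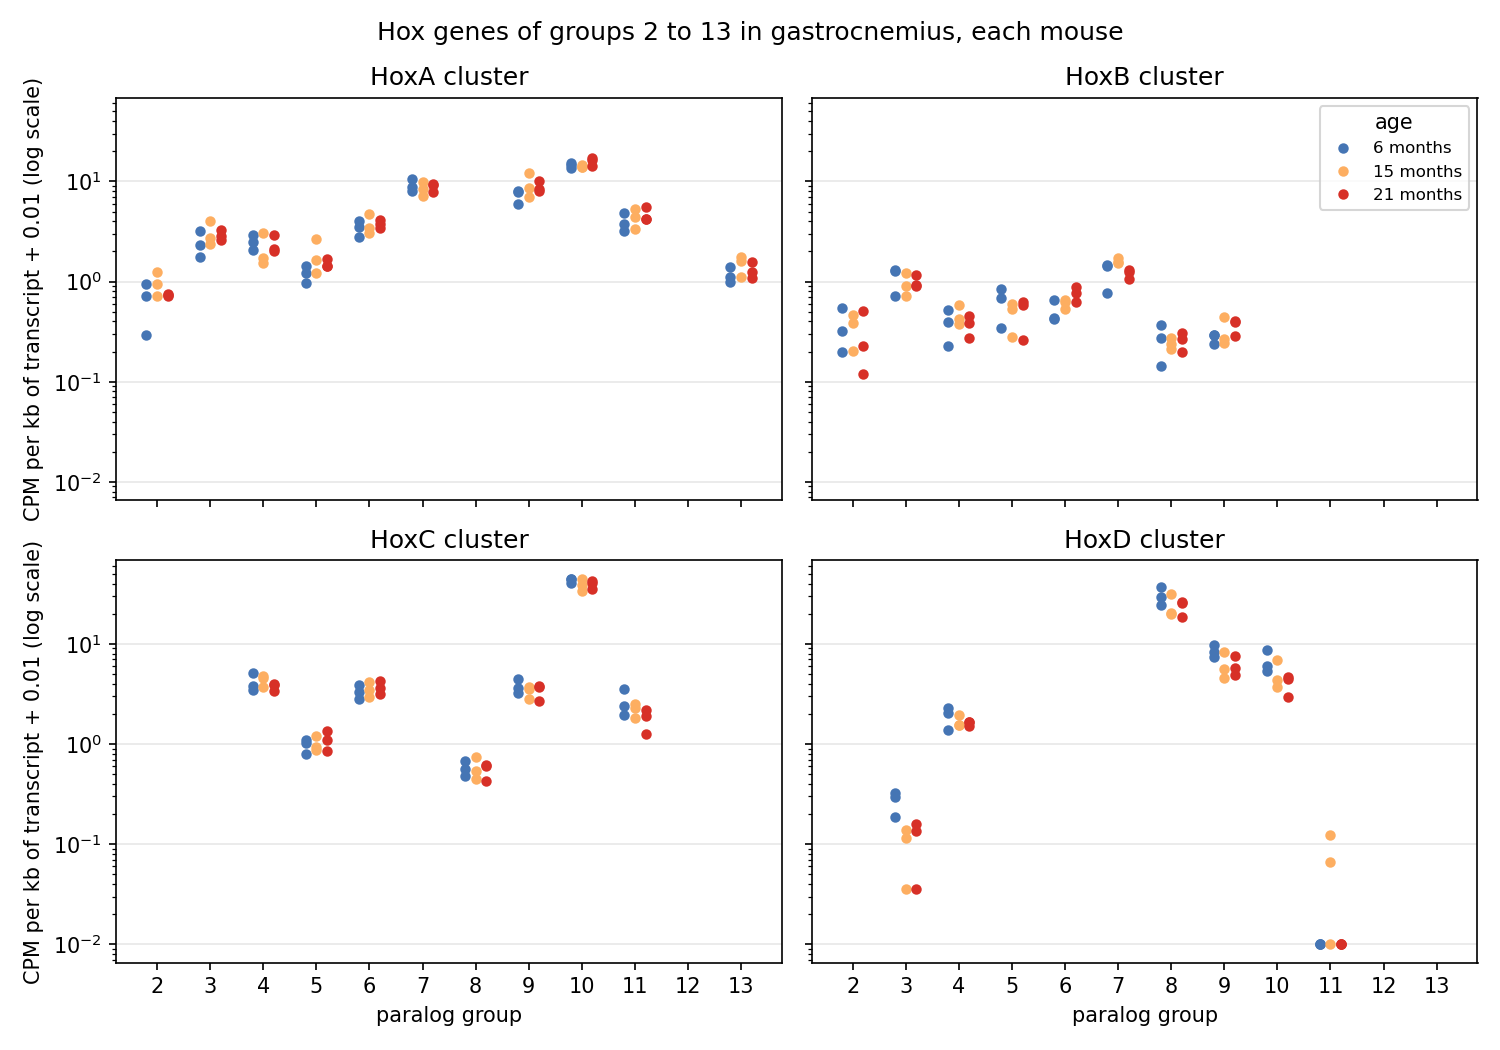
Level of the Hox genes of paralog groups 2 to 13 in CPM per kilobase of transcript plus 0.01 (log axis) against its paralog group, with 1 panel per cluster and 1 point per mouse coloured by age. Hoxc10 averaged 40.5 and Hoxd8 25.9 CPM per kilobase over the 9 mice, and the points of the 3 ages lie on top of each other for most genes.

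The gene with the highest level per length was Hoxc10, whose paralog group patterns the lumbar and sacral region and the hindlimb. Hoxc10 stood at 85.3, 84.9 and 78.2 CPM in the 6-month mice, 63.7, 74.1 and 84.1 CPM in the 15-month mice and 77.3, 81.7 and 67.2 CPM in the 21-month mice. The highest mice of all 3 ages lay within a few CPM of each other, the ages overlapped, and 15-month mouse 1 and 21-month mouse 3 were the lowest. Its log2 fold change was -0.14 at 21 against 6 months (SE 0.12, adjusted p = 0.728) and -0.16 at 15 against 6 months (SE 0.12, adjusted p = 0.666), with edgeR. Hoxa10, its paralog in HoxA, had 29.1, 30.3 and 26.9 CPM in the 6-month mice, 28.1, 27.9 and 28.9 CPM in the 15-month mice and 32.7, 34.1 and 28.3 CPM in the 21-month mice. This was the smallest ratio between the highest and the lowest mouse among the tested members, 1.27, against a median of 1.95 over the tested Hox genes. Its log2 fold change was 0.14 at 21 against 6 months (SE 0.10, adjusted p = 0.636).

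Tbx4, which marks hindlimb rather than forelimb mesenchyme, was present at 1.67 to 4.53 CPM. Tbx5, its forelimb counterpart, was at 0 to 0.063 CPM, with at most 1 count in a library. Pitx1, another hindlimb factor, was at 0 to 0.377 CPM. The muscle thus held Tbx4, with next to no Tbx5 or Pitx1, at all 3 ages. Of the Hox signal per length, group 10 held a mean of 40.7%, group 8 17.8% and group 9 12.8%. Group 11, at 4.38%, was below groups 7 (6.84%), 4 (5.71%) and 6 (5.25%). Most of the group 7 share came from Hoxa7. Its level was divided by a median transcript length of 807 bases, while its annotated exons cover 2490 bases. The place of group 7 above group 11 depends on that length. The limb list had 18 of 23 measured genes tested, led by Tbx15 (251 to 336 CPM), and 0 of them passed the adjusted threshold in any of the 3 comparisons.

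Among the other 5′ genes of HoxA, Hoxa9, Hoxa11 and Hoxa13 act from the upper limb segment toward the foot. Hoxa9 stood at 16.5, 15.8 and 12.02 CPM in the 6-month mice, 24.7, 14.2 and 17.4 CPM in the 15-month mice and 16.2, 17.002 and 20.4 CPM in the 21-month mice. The highest value belonged to 15-month mouse 1 and the lowest to 6-month mouse 3, and the ages overlapped. Hoxa11, of the group that patterns the forearm and lower leg, had 8.61, 11.1 and 7.36 CPM in the 6-month mice, 7.56, 12.02 and 10.2 CPM in the 15-month mice and 9.62, 12.8 and 9.51 CPM in the 21-month mice. Its 3 ages also overlapped, and 24.8% of its exon bases are shared with the antisense RNA Hoxa11os, so reads of the pair cannot be told apart without strand. Hoxa13, a gene of the digits and the urogenital end of the body, was low at 1.45, 1.82 and 1.29 CPM in the 6-month mice, 1.43, 2.10 and 2.27 CPM in the 15-month mice and 2.04, 1.61 and 1.42 CPM in the 21-month mice. Hoxa9 differed by 0.28 at 21 against 6 months (SE 0.20, adjusted p = 0.666) and Hoxa11 by 0.24 (SE 0.21, adjusted p = 0.734) on the log2 scale.

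The middle and 3′ genes of HoxA, which pattern the thorax, neck and hindbrain, were present as well. Per length they were not all below the 5′ genes. Hoxa7 averaged 8.78 CPM per kilobase, against 8.41 for Hoxa9, 4.31 for Hoxa11 and 1.31 for Hoxa13. Hoxa6 averaged 3.64, Hoxa3 2.78, Hoxa4 2.30, Hoxa5 1.51 and Hoxa2 0.775 CPM per kilobase. Hoxa7 had 6.41, 7.01 and 8.46 CPM in the 6-month mice, 7.996, 5.73 and 6.76 CPM in the 15-month mice and 7.45, 6.32 and 7.60 CPM in the 21-month mice. Hoxa6 had 3.52, 2.44 and 3.07 CPM in the 6-month mice, 4.15, 2.65 and 2.97 CPM in the 15-month mice and 3.31, 3.58 and 2.96 CPM in the 21-month mice. Both genes overlapped between all ages. Hoxa5, which acts at the boundary of neck and thorax, stood at 2.26, 1.82 and 2.64 CPM in the 6-month mice, 5.02, 2.28 and 3.10 CPM in the 15-month mice and 2.64, 3.16 and 2.66 CPM in the 21-month mice. Every 21-month mouse was above every 6-month mouse by a narrow margin, while the 15-month mice overlapped both, and its highest value was in 15-month mouse 1. Hoxa4 had 3.90, 4.63 and 3.31 CPM in the 6-month mice, 2.73, 2.40 and 4.80 CPM in the 15-month mice and 3.19, 4.65 and 3.33 CPM in the 21-month mice. Hoxa3, needed for the thymus and parathyroid, had 5.97, 4.57 and 8.28 CPM in the 6-month mice, 10.4, 7.09 and 6.06 CPM in the 15-month mice and 6.67, 8.53 and 7.35 CPM in the 21-month mice. Hoxa2, the selector gene of the second pharyngeal arch, had 1.26, 0.501 and 1.66 CPM in the 6-month mice, 2.17, 1.66 and 1.26 CPM in the 15-month mice and 1.32, 1.25 and 1.30 CPM in the 21-month mice. For these 3 genes the ages overlapped, and 15-month mouse 1 was the highest mouse for Hoxa3 and Hoxa2. Annotated antisense or readthrough transcripts share 25.1% of the exon bases of Hoxa3, 23.3% of Hoxa7, 16.0% of Hoxa4 and 15.0% of Hoxa2.

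HoxB was the faintest cluster, with a summed level of 7.95 to 10.8 CPM over its 8 measured genes, against 92.4 to 117 CPM for HoxC. Hoxb3 had 3.27, 1.82 and 3.19 CPM in the 6-month mice, 3.04, 1.79 and 2.27 CPM in the 15-month mice and 2.94, 2.27 and 2.35 CPM in the 21-month mice. Its antisense neighbour Hoxb3os covers 63.9% of its exon bases and 58.5% of those of Hoxb2, so both values are uncertain. Hoxb7, a trunk gene, had 1.82, 1.88 and 0.981 CPM in the 6-month mice, 1.98, 2.03 and 2.21 CPM in the 15-month mice and 1.68, 1.61 and 1.36 CPM in the 21-month mice. All 15-month mice were above all 6-month and all 21-month mice, but the means of the 3 ages lay between 1.55 and 2.08 CPM. Hoxb4 stood at 1.32, 0.563 and 0.981 CPM in the 6-month mice, 1.49, 1.048 and 0.948 CPM in the 15-month mice and 0.962, 1.13 and 0.679 CPM in the 21-month mice. Hoxb5 stood at 0.628, 1.56 and 1.29 CPM in the 6-month mice, 0.992, 1.11 and 0.505 CPM in the 15-month mice and 1.08, 0.477 and 1.17 CPM in the 21-month mice. Hoxb6 stood at 1.07, 0.688 and 0.674 CPM in the 6-month mice, 1.054, 0.863 and 1.01 CPM in the 15-month mice and 1.02, 1.43 and 1.24 CPM in the 21-month mice. These 3 genes were near the lower end of what passed the filter, and the ages overlapped. Hoxb9 ran from 0.552 to 1.054 CPM and Hoxb2 from 0.180 to 0.880 CPM over the 9 mice.

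In HoxC, the genes on either side of Hoxc10 were an order lower in level per length, at 3.50 CPM per kilobase for Hoxc9 and 2.19 for Hoxc11. Hoxc9, which sets thoracic identity in motor neurons, had 7.60, 10.5 and 8.58 CPM in the 6-month mice, 8.86, 6.72 and 8.40 CPM in the 15-month mice and 8.95, 8.77 and 6.42 CPM in the 21-month mice. Hoxc11 had 4.78, 7.07 and 3.92 CPM in the 6-month mice, 5.02, 4.56 and 3.66 CPM in the 15-month mice and 3.79, 4.41 and 2.53 CPM in the 21-month mice. The highest Hoxc11 mouse was 6-month mouse 2 and the lowest 21-month mouse 3, and the ages overlapped. Hoxc4 had 7.79, 7.07 and 10.5 CPM in the 6-month mice, 9.67, 9.25 and 7.52 CPM in the 15-month mice and 8.05, 7.93 and 6.98 CPM in the 21-month mice. Hoxc5 had 2.95, 2.32 and 3.19 CPM in the 6-month mice, 2.54, 3.45 and 2.72 CPM in the 15-month mice and 2.46, 3.94 and 3.15 CPM in the 21-month mice. Hoxc6, active at forelimb and thoracic levels in the embryo, had 5.15, 4.38 and 6.13 CPM in the 6-month mice, 6.63, 4.68 and 5.50 CPM in the 15-month mice and 5.65, 6.74 and 5.002 CPM in the 21-month mice. None of these genes separated the ages. Hoxc8 was low at 0.880, 1.25 and 1.04 CPM in the 6-month mice, 0.992, 1.36 and 0.821 CPM in the 15-month mice and 1.14, 0.776 and 1.11 CPM in the 21-month mice.

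HoxD was the Hox cluster whose summed level varied most between mice. Summed over its 6 measured genes, HoxD stood at 72.8, 106 and 85.3 CPM in the 6-month mice, 57.7, 57.0 and 89.6 CPM in the 15-month mice and 70.3, 72.4 and 51.9 CPM in the 21-month mice. The highest was 6-month mouse 2 and the lowest 21-month mouse 3. HoxA, by contrast, stood at 79.2, 80.1 and 75.2 CPM in the 6-month mice, 94.9, 79.0 and 84.0 CPM in the 15-month mice and 85.2, 93.3 and 85.2 CPM in the 21-month mice, and its lowest mouse was 6-month mouse 3.

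Hoxd8, the gene that carries most of the HoxD signal, had 42.7, 65.5 and 51.9 CPM in the 6-month mice, 35.9, 35.1 and 55.6 CPM in the 15-month mice and 46.0, 44.9 and 32.8 CPM in the 21-month mice. Hoxd9, a gene of the proximal limb, had 15.6, 20.9 and 17.5 CPM in the 6-month mice, 9.67, 11.96 and 17.9 CPM in the 15-month mice and 12.1, 16.1 and 10.4 CPM in the 21-month mice. Hoxd10, which shapes the lumbosacral cord and the hindlimb, had 9.62, 15.8 and 10.9 CPM in the 6-month mice, 7.81, 6.72 and 12.6 CPM in the 15-month mice and 8.47, 7.99 and 5.37 CPM in the 21-month mice. In all 3 genes 6-month mouse 2 was the highest, and 15-month mouse 3 was above the other 15-month mice. The ages overlapped for Hoxd8 and Hoxd9, while for Hoxd10 every 21-month mouse was below every 6-month mouse. Hoxd4 differed less, at 4.08, 2.75 and 4.60 CPM in the 6-month mice, 3.97, 3.14 and 3.10 CPM in the 15-month mice and 3.31, 3.04 and 3.33 CPM in the 21-month mice, and 45.1% of its exon bases lie in an annotated transcript that also spans Hoxd3.

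Mean Hoxd10 was 7.28 ± 1.67 CPM in the 21-month mice and 12.1 ± 3.26 CPM in the 6-month mice (SD, n = 3 each), a log2 difference of -0.73 (SE 0.27) that missed the adjusted threshold with edgeR (adjusted p = 0.377). Hoxd9 differed by -0.49 (SE 0.23, adjusted p = 0.482) and Hoxd8 by -0.37 (SE 0.21, adjusted p = 0.569) over the same interval. At 15 against 6 months the log2 differences were -0.42 for Hoxd10, -0.45 for Hoxd9 and -0.34 for Hoxd8. These 2 comparisons share the 6-month mice. Without the 3 libraries that stood apart, the differences at 21 against 6 months came to -0.31 for Hoxd10, -0.23 for Hoxd9 and -0.06 for Hoxd8.

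The sequences just before a start of these 3 neighbouring genes are shown because the levels of the genes ran together across the mice. They come from RefSeq (GRCm38.p6, plus strand, 250 bases each, written 5′ to 3′). They are chr2:74704365-74704614 for Hoxd8, chr2:74697513-74697762 for Hoxd9 and chr2:74691641-74691890 for Hoxd10. The first 2 windows end at the start of the gene's RefSeq span. The span of Hoxd10 begins earlier, at chr2:74684273, so its window lies inside the span, before an internal start. Capitals mark matches to the motifs searched on both strands, which were AGGTCA (the half-site of nuclear receptors such as the thyroid hormone receptor named in the series title), TAATTA (a homeodomain core), TATAAA (the TATA box) and GGGCGG (the GC box).
Hoxd8 promoter: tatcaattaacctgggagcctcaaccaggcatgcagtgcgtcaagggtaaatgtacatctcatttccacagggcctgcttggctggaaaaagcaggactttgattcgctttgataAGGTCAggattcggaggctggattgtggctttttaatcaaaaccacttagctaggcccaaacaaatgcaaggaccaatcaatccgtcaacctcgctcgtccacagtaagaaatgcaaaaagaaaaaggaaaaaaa
Hoxd9 promoter: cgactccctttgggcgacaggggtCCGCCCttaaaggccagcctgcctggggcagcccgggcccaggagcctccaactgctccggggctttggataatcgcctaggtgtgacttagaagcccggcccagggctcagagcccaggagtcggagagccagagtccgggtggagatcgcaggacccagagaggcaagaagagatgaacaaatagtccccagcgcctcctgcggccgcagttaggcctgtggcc
Hoxd10 promoter: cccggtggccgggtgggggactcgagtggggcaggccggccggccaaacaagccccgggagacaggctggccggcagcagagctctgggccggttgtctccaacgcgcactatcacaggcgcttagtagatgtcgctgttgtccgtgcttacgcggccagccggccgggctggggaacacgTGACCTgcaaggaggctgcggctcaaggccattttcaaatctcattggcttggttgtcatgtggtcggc
The Hoxd8 window holds AGGTCA at position -135 counted from the start, the Hoxd10 window holds it on the other strand at -69, and the Hoxd9 window holds a GC box on the other strand at -226. Among 32851 RefSeq windows of the same length, AGGTCA occurs in 14.02%, TAATTA in 4.84%, TATAAA in 12.4% and GGGCGG in 32.7%. The windows hold 6, 13 and 20 CG dinucleotides for Hoxd8, Hoxd9 and Hoxd10, against a median of 6. A match is a description of letters in the window and not a binding site.

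Levels of Hoxd8, Hoxd9 and Hoxd10 were seen to run opposite to Myh2 across the mice. Slopes on the Myh2 level, fitted with edgeR for every gene with age in the model, restate that pattern in the same 9 mice, so they are given as a description with no test. Per 1000 CPM of Myh2 the slope on the log2 scale was -0.23 for Hoxd9 (SE 0.04), -0.20 for Hoxd8 (SE 0.04) and -0.24 for Hoxd10 (SE 0.06). Leaving out single libraries moved these slopes between -0.26 and -0.20 for Hoxd9, between -0.26 and -0.18 for Hoxd8 and between -0.33 and -0.21 for Hoxd10. Hoxc10 had a slope of -0.09 (SE 0.03), Hoxa4 of -0.18 (SE 0.08) and Hoxb2 of 0.47 (SE 0.16). Hoxa9, with a slope of 0.12 (SE 0.06), had its 2 highest values in 15-month mouse 1 and 21-month mouse 3. With the Myh2 level in the fit, the log2 differences at 21 against 6 months were -0.44 for Hoxd10, -0.21 for Hoxd9 and -0.12 for Hoxd8, and at 15 against 6 months 0.04, -0.04 and 0.05 in the same order.

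**Figure D2:**
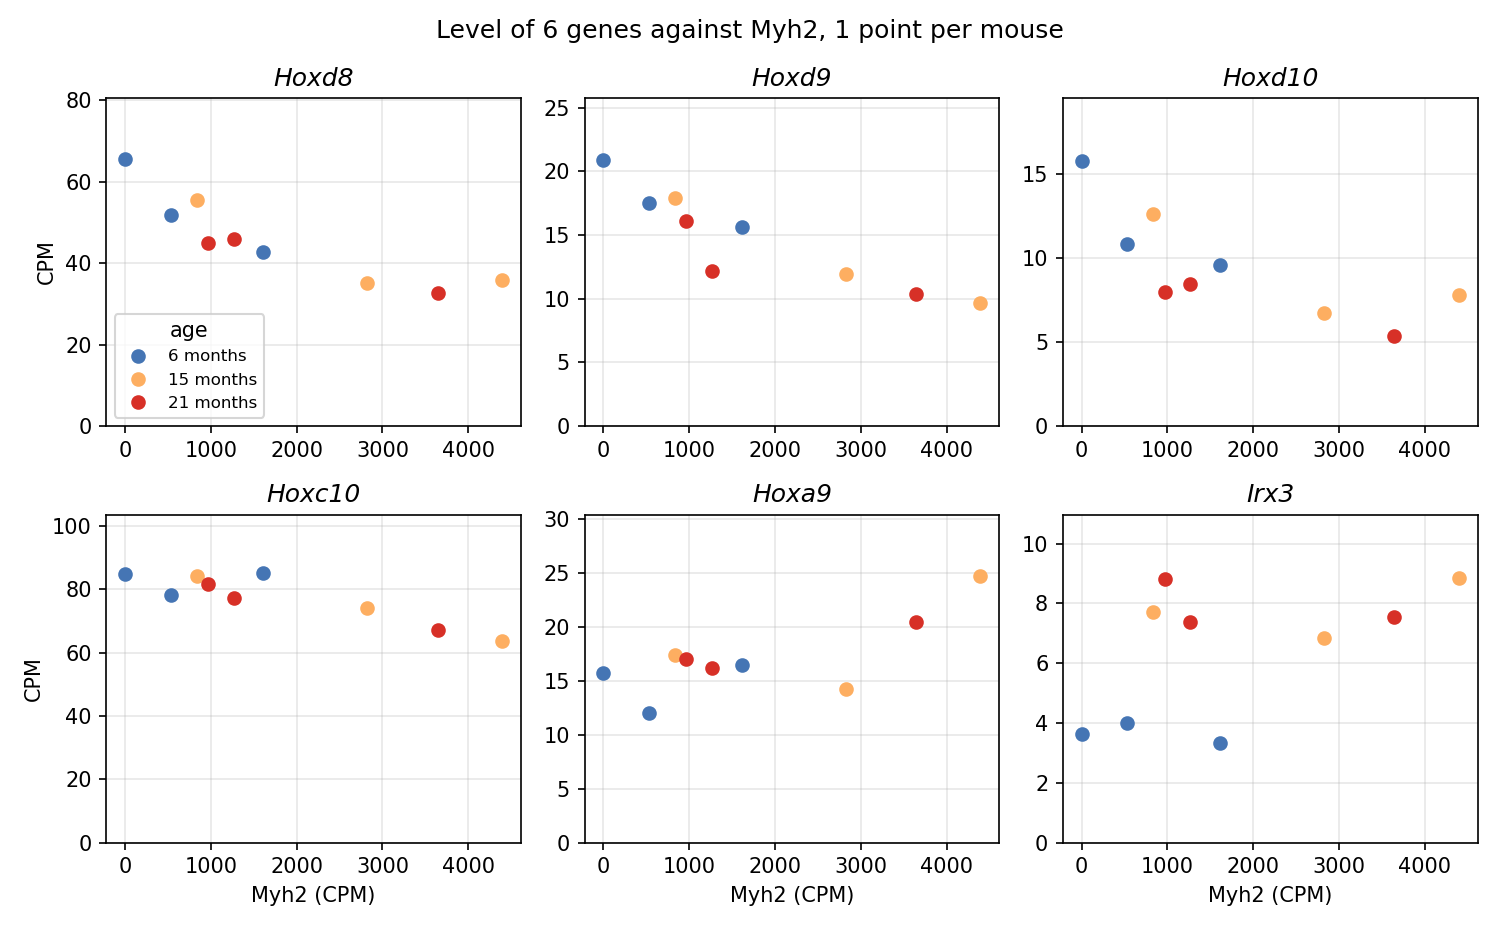
Level in CPM of 6 members against the Myh2 level in CPM, 1 point per mouse coloured by age. Hoxd8, Hoxd9 and Hoxd10 are highest in the mouse with 0.751 CPM of Myh2 and lowest among the mice with 2825 to 4395 CPM. Irx3 is lower in every 6-month mouse (0.751 to 1611 CPM of Myh2) than in every older mouse (834 to 4395 CPM). The Myh2 levels of the 6-month and the older mice thus overlap only in part.

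Other genes moved along the same axis, and their part in the HoxD levels was not tested. In the same fit 4.62% of all tested genes passed the adjusted threshold for a slope on Myh2, 1.49% lower and 3.13% higher with more Myh2. Of the macrophage markers, 4 of 5 were among those higher with more Myh2, namely Cd68 (slope 0.42, SE 0.07, adjusted p = 0.0119), C1qa (0.37, SE 0.04, adjusted p = 0.00348), Csf1r (0.27, SE 0.04, adjusted p = 0.00671) and Mrc1 (0.22, SE 0.05, adjusted p = 0.0440), with edgeR. The other, Adgre1, had a slope of 0.19 (SE 0.09, adjusted p = 0.268). Named after their values were seen, Six2 of the limb list (slope -0.53 per 1000 CPM of Myh2) and Mtx2 (0.26), which flanks HoxD on its 3′ side, also passed. When single libraries were left out, C1qa stayed at adjusted p-values of up to 0.0332 and Mtx2 of up to 0.0313. Csf1r lost the call without 15-month mouse 1 (adjusted p = 0.0577) or 21-month mouse 3 (0.0633), and Cd68 without 21-month mouse 3 (0.122). Mrc1 lost it without 6-month mouse 2, any 15-month mouse or 21-month mouse 2 or 3 (up to 0.283), and Six2 without 6-month mouse 1, 15-month mouse 1 or 3 or any 21-month mouse (up to 0.159). On a log2 scale of Myh2 these 6 genes had adjusted p-values of 0.318 to 0.573. Mtx2 had a slope of the opposite sign to its neighbours Hoxd8 and Hoxd9. Summed slow fibre markers were at 65.2 to 584 CPM in the 21-month mice, 164 to 637 CPM in the 15-month mice and 2.88 to 92.2 CPM in the 6-month mice. Fibro-adipogenic progenitor markers summed to 1689 CPM in 6-month mouse 2 and to 1068 to 1263 CPM in the other mice. Dcn alone gave 1391 CPM of that highest sum. Pdgfra was also highest in that mouse, at 77.9 CPM against 49.5 to 72.3 CPM in the others. Cd34 was lower in it (95.6 CPM) than in any other, and Dpp4, Ly6a and Pi16 lay within the range of the other mice. Adipocyte markers summed to 42.6 CPM in 6-month mouse 2 and to 2.65 to 8.47 CPM in the others. Dcn (slope -0.07, adjusted p = 0.541) and Adipoq (slope -0.11, adjusted p = 0.907) did not pass.

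Irx3 had the largest fold change with age among the tested members. It stood at 3.33, 3.63 and 3.99 CPM in the 6-month mice, 8.86, 6.84 and 7.71 CPM in the 15-month mice and 7.39, 8.83 and 7.53 CPM in the 21-month mice, from 53 to 65 counts at 6 months and 111 to 148 counts in the older mice. All older mice were above all 6-month mice, and the 15- and 21-month mice overlapped. The mean of Irx3 was 7.92 ± 0.79 CPM in the 21-month mice and 3.65 ± 0.33 CPM in the 6-month mice (SD, n = 3 each), a ratio of 2.17. In the 15-month mice it was 7.80 ± 1.01 CPM (SD, n = 3), a ratio of 2.14 to the 6-month mice.

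The fit across all genes gave Irx3 the fourth smallest p at 21 against 6 months, with a log2 fold change of 1.12 (SE 0.16) and an adjusted p of 0.0585 with edgeR. At 15 against 6 months the difference was 1.09 (SE 0.16), with the second smallest p and an adjusted p of 0.136. Neither passed the threshold, and the comparisons share the 6-month mice. At 21 against 15 months the difference was 0.02 (SE 0.15, adjusted p = 0.9999). A two-sided exact permutation test of the CPM gave p = 0.1 for both older ages against 6 months, the smallest value that 3 against 3 mice allow.

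With DESeq2 the adjusted p of Irx3 was 5.83e-05 at 21 against 6 months and 0.000313 at 15 against 6 months. Without the 3 libraries that stood apart the fold changes were 1.15 and 0.99, with adjusted p-values of 0.146 and 0.261. With the Myh2 level in the fit, the log2 fold change at 21 against 6 months was 1.11 and its adjusted p 0.0484. Over all alternatives run, the adjusted p lay between 5.83e-05 and 0.209 at 21 against 6 months and between 0.000313 and 0.425 at 15 against 6 months. The slope of Irx3 on Myh2 was 0.00 (SE 0.05).

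**Figure D3:**
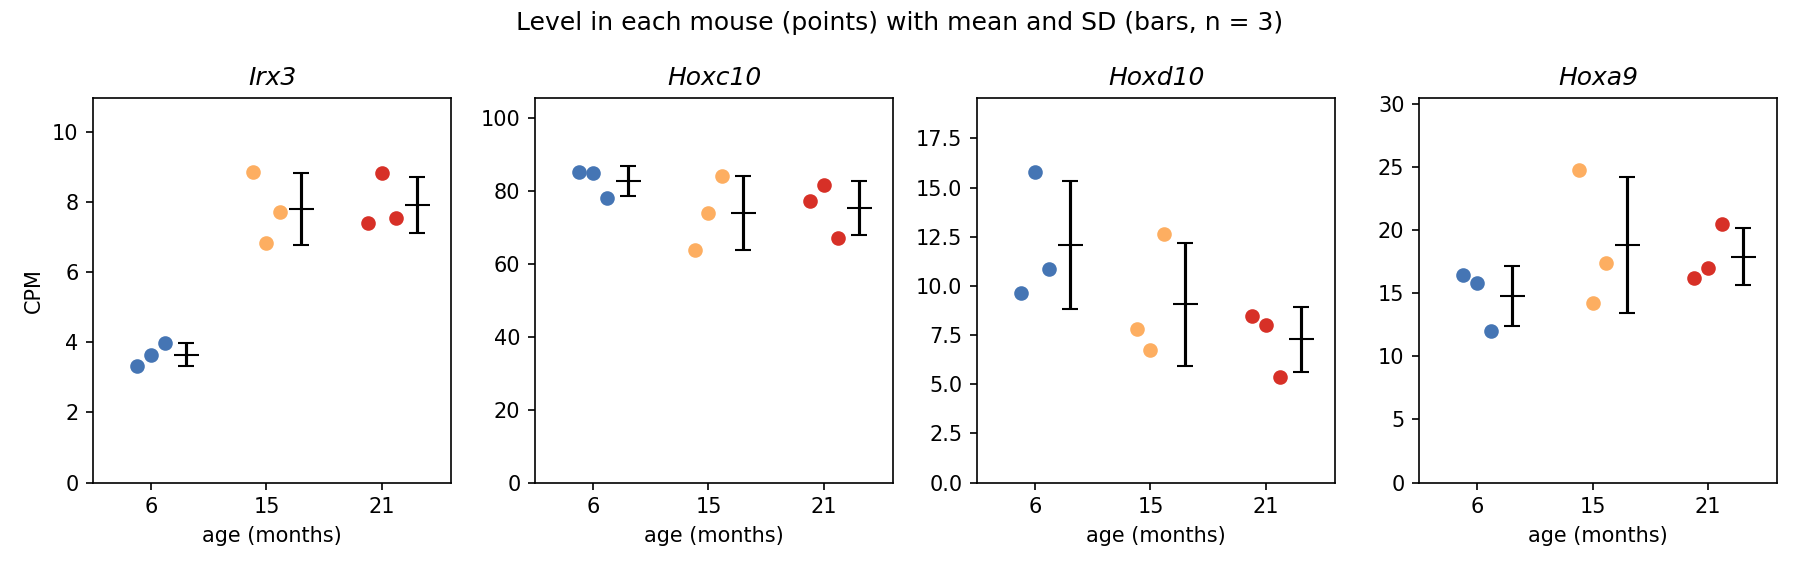
Level in CPM of 4 members at 6, 15 and 21 months, with 1 point per mouse and the mean ± SD beside it (n = 3). Irx3 is at 3.33 to 3.99 CPM in the 6-month mice and at 6.84 CPM or above in all older mice, while the ages overlap for Hoxc10 and Hoxa9.

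The other Irx genes were close to 0. Irx5, which often acts with Irx3 in the mouse embryo and lies 556 kb from it, had 0 to 4 counts per library. Irx6, 873 kb away, had 0 or 1 count. Irx1 had 0 to 8 counts. Irx2 had 9, 5 and 7 counts in the 21-month mice, 3, 1 and 2 in the 15-month mice and 6, 4 and 4 in the 6-month mice. All 21-month mice and all 6-month mice were above all 15-month mice. In a fit without the low filter the log2 difference of Irx2 at 21 against 15 months was 1.70 (SE 0.60, adjusted p = 1), with edgeR. Fto, whose body ends 130 kb from Irx3, stood at 112.6, 126.2 and 126.7 CPM in the 6-month mice, 106.5, 118.7 and 126.3 CPM in the 15-month mice and 110.9, 115.4 and 123.0 CPM in the 21-month mice. Its log2 fold changes were -0.07 at 21 against 6 months and -0.06 at 15 against 6 months, with overlapping ages. The 9 tested neighbours of the Irx clusters had 0 genes past the adjusted threshold in any comparison.

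Irx3 lies at chr8:91798511-91801654 on the minus strand, and 4.49% of its exon bases are shared with the antisense RNA Irx3os, which was not analysed here. The 250 bases before its start, at chr8:91801655-91801904 and written along the minus strand (RefSeq, GRCm38.p6), are shown because Irx3 was the member with the largest age difference.
Irx3 promoter: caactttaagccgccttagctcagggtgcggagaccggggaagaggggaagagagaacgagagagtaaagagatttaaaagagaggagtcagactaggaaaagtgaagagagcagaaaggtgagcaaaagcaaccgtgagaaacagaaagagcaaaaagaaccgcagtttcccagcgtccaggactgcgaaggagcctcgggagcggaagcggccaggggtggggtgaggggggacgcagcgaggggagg
None of the 4 motifs occurs in this window, which says only that these letters are absent from it. It holds 13 CG dinucleotides.

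Markers of other cells beside the Irx3 difference were as follows, and their part in it was not tested. By the sign of the estimate, macrophage markers were lower in 5 of 5 at both older ages and summed to 42.5 to 74.7 CPM at 21 months, 37.6 to 78.3 CPM at 15 months and 65.9 to 94.3 CPM at 6 months, overlapping. Smooth muscle and pericyte markers were higher in 5 of 5 and summed to 814 to 1081 CPM at 21 months, 914 to 1160 CPM at 15 months and 651 to 969 CPM at 6 months. Slow fibre markers were higher in 5 of 5, with median log2 fold changes of 2.68 at 21 against 6 months and 3.13 at 15 against 6 months. Their sums of 65.2 to 584 CPM at 21 months overlapped those of 2.88 to 92.2 CPM at 6 months. The sums of 164 to 637 CPM at 15 months lay above all those at 6 months. Adipocyte markers were lower in 4 of 4 tested at both older ages, with medians of -1.40 and -1.57, and were highest in 6-month mouse 2. The other lists had mixed signs at both older ages. At 21 against 6 months 2 of 5 endothelial, 2 of 5 Schwann cell and 2 of 5 satellite cell markers were higher. So were 3 of 5 tenocyte, 3 of 6 fibro-adipogenic progenitor and 1 of 5 fast fibre markers. In these lists 0 genes passed the adjusted threshold with edgeR at either older age against 6 months.

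Over all 29 tested members, 0 passed the adjusted threshold at 21 against 6 months with edgeR, against 0.0153% of all genes. At 15 against 6 months 0 passed, against 0.00767%, and at 21 against 15 months 0 passed, against 0%. DESeq2 called 1 member, Irx3, in each comparison with 6 months and 0 at 21 against 15 months. Its calls over all genes were also more numerous, with 196, 110 and 3 in the same order of comparisons. The genes it tested numbered 13901, 13901 and 17245. At an unadjusted p under 0.05 there were 2 members at 21 against 6 months (Irx3 and Hoxd10), against 10.6% of all genes. There was 1 at 15 against 6 months (Irx3), against 10.3%, and 0 at 21 against 15 months, against 1.82%.

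Groups did not overlap for 3 tested members at 21 against 6 months (Irx3 and Hoxa5 higher, Hoxd10 lower), against 16.1% of all genes. At 15 against 6 months there were 2 (Irx3 and Hoxb7, both higher), against 13.8%, and at 21 against 15 months 1 (Hoxb7, lower), against 6.14%. The median log2 fold change of the members was -0.03, 0.04 and -0.03 in the 3 comparisons in that order, against -0.01, -0.01 and -0.00 over all genes. The median size of the change, whatever its sign, was 0.18, 0.25 and 0.10 among the members, against 0.14, 0.14 and 0.09 over all genes. Counting error adds to this size for low genes, and only 5 members had a mean of at least 10 CPM. Genes of a matched level were not compared. By the sign of the estimate alone, 13 of 29 members were higher at 21 against 6 months, where 48% of all genes were higher. By cluster these were 8 of 10 HoxA genes, 2 of 7 HoxB genes, 2 of 7 HoxC genes and 0 of 4 HoxD genes, besides Irx3.

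**Figure D4:**
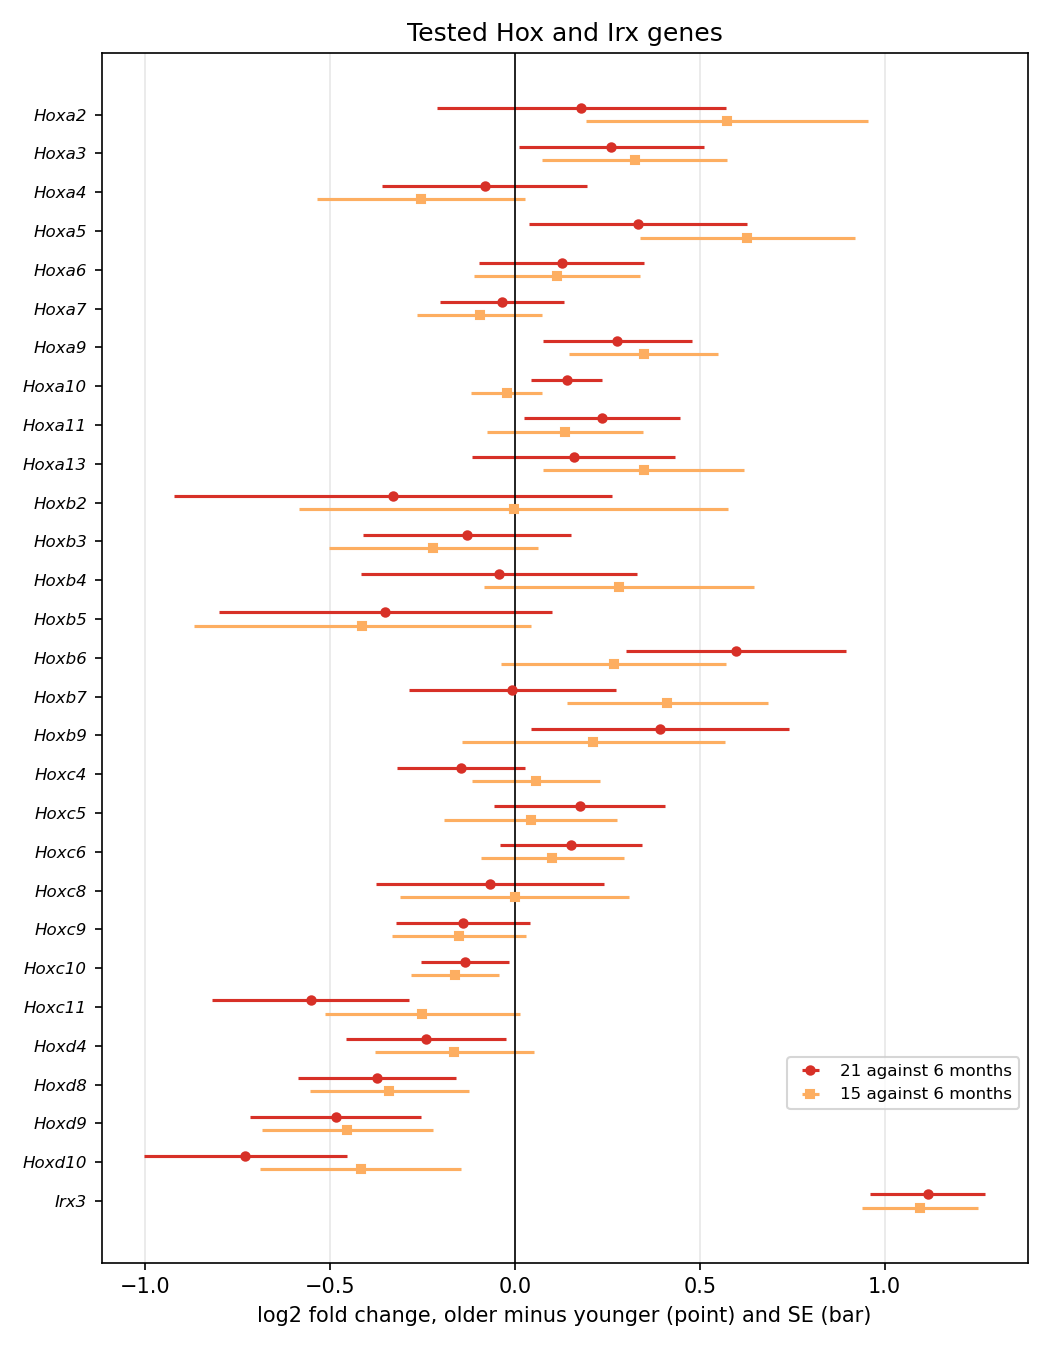
Log2 fold change of each tested member at 21 against 6 months (circles) and at 15 against 6 months (squares), with bars of 1 SE. Irx3 lies at 1.12 and 1.09, and the Hox genes lie between -0.73 and 0.63.

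Partners and regulators of Hox proteins were read from lists of known genes. TALE cofactors, which bind DNA with Hox proteins, had 0 of 8 tested genes past the threshold in each comparison, and Pknox2, among the most abundant, was at 31.5 to 42.5 CPM. Polycomb and Trithorax genes, which hold Hox clusters silent or active, had 0 of 24 past the threshold. Their most abundant genes were Kmt2d, a histone H3 methyltransferase, at 83.1 to 108 CPM and Bmi1, a Polycomb subunit, at 87.1 to 103 CPM. Genes beside the Hox clusters had 0 of 10 past it, led by Hnrnpa1 at 119 to 157 CPM and Hibadh at 112 to 146 CPM. At an unadjusted p under 0.05, these 3 lists had 0, 2 and 0 genes at 21 against 6 months and 1, 1 and 1 at 15 against 6 months.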

How the data were processed

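RNA of gastrocnemius muscle from 9 mice was measured by oligo(dT)-selected sequencing, per the labels' protocols. The authors deposited estimated counts per gene, 90.0 to 90.7% of which were whole within 0.005 in a library. Per the submitters' processing notes the genome build was mm10. What the authors used as aligner, counter and strand setting was not given in the sources used here. Estimated counts can share reads between similar or overlapping genes, and oligo(dT) selection depends on RNA integrity. Samples were grouped by age from their titles, and 0 columns belonged to other samples.

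Counts were rounded, filtered with filterByExpr (minimum count 10), scaled with TMM (factors 0.923 to 1.05) and fitted in edgeR 4.0.16 under R 4.3.3 (quasi-likelihood test), with age as a factor over all 9 libraries and 6 residual degrees of freedom. P-values were adjusted by Benjamini-Hochberg over all 13044 genes tested. The biological coefficient of variation was 0.164. Total counts of 15354396 to 17317856 add counting error for low genes. The script was checked on simulated counts.

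The members, gene lists and tests were chosen with earlier results of these data known. Members at a mean of 1 CPM or more in any age, or with an unadjusted p under 0.05, are given by mouse, and the others by ranges. List genes are named as the 2 with the highest mean of a list, or by an unadjusted p under 0.01 or an adjusted p past the threshold, with exceptions stated where they occur. The values of 1 member and of some list genes that this rule would name are not reported here. Gene IDs (17188 of 17314 matched), coordinates and promoter sequences come from RefSeq tables of GRCm38.p6, and exon overlaps and transcript lengths from a GENCODE annotation of that assembly. Levels per kilobase use the median length of protein-coding transcripts. Alternatives were DESeq2 1.42.0, RLE and total count scaling, other filters, a block for the replicate number, a fit of only the 2 ages compared, voom of limma 3.58.1 with sample quality weights, and leaving out each library or the 3 that stood apart. The Myh2 level as a covariate and the slopes on it were added after the data had been seen.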

Additional observations from a re-analysis of the deposited data

How the results depend on the processing

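With the planned test 2, 1 and 0 genes were called at 21 against 6, 15 against 6 and 21 against 15 months. DESeq2 called 196, 110 and 3. At 21 against 6 months, 1 gene was called with total count scaling, 30 without a filter, 5 with the replicate number as a block, 59 with voom and 37 with the Myh2 level in the fit. At 15 against 6 months, 0 were called with total count scaling, the block, only the 2 ages or the Myh2 level, and at 21 against 15 months voom called 1. Called members numbered 1, Irx3, at 21 against 6 months with DESeq2 (1.12), no filter (1.12), voom (1.17) and the Myh2 level (1.11), and 1 at 15 against 6 months with DESeq2 (1.10). The block left Irx3 with adjusted p-values of 0.130 and 0.172. Correlations of same-numbered mice ran from -0.42 to 0.41, and those of differently numbered mice of 2 ages from -0.37 to 0.40. These ranges show no pairing by number, but cannot exclude a weak one.

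Leaving out single libraries gave 0 to 42 genes and 0 to 1 members at 21 against 6 months, 0 to 10 genes at 15 against 6 months, and Irx3 changes of 1.03 to 1.19, 0.99 to 1.18 and -0.065 to 0.12 in the 3 comparisons. Irx3 passed at 21 against 6 months only without 6-month mouse 3 (adjusted p = 0.0430), and otherwise stayed at adjusted p-values of up to 0.209.

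Signs turned at 15 against 6 months for Hoxa10 (0.055 with total count scaling, 0.022 without the 3 libraries, 0.061 with the Myh2 level) and, with the Myh2 level, for Hoxd10 (0.044), Hoxd8 (0.052) and Hoxc10 (0.0067). Without single libraries Hoxa10 ran from -0.058 to 0.016 and Hoxa11 from -0.027 to 0.31. Fto turned to 0.017 at 21 and 0.016 at 15 against 6 months with total count scaling, and at 15 against 6 months to 0.0029 with voom, 0.034 without the 3 libraries, 0.0035 with the Myh2 level and -0.11 to 0.0085 without single libraries. The cause of these turns was not tested.

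For the slopes on Myh2, 602 genes and 2 members were called (Hoxd8 and Hoxd9, from the pattern that led to the fit, and so no independent test), against 23 and 0 on its log2 scale, 907 and 4 without a term for age, and 54 to 952 and 0 to 3 without single libraries. The Irx3 slope was -0.0019 on the log2 scale and -0.067 to 0.026 without single libraries. With 3 mice per age, low counts and the spread between mice limit what could be called.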
